A study of Homo sapiens with 6 samples.

Results

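The canonical Wnt pathway, the oncogene MYC and the cyclin gene CCND1 were followed through 10 genes chosen by name: CTNNB1, TCF7, TCF7L1, TCF7L2, AXIN2, RNF43, ZNRF3, DKK1, MYC and CCND1. Of these, 9 had a row among the 32692 genes of the expression table, and TCF7L1 was not analysed here. The cells were DU145, a human line derived from a prostate carcinoma, exposed for 24 h to OTI-611 at 5 µM or to its solvent DMSO, with 3 libraries in each group. OTI-611 is known here by its code name only, and the title of the series concerns targeting of CHD1L, a chromatin remodeller, in prostate cancer through FOXO3, a forkhead transcription factor, and PUMA, a cell death protein.

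In the canonical Wnt pathway, secreted Wnt proteins bind Frizzled receptors and their LRP partners, which stops a destruction complex built on Axin and APC from marking β-catenin for degradation. β-catenin then enters the nucleus and binds TCF and LEF factors, which switch on target genes, among them feedback genes that dampen the pathway (AXIN2, RNF43, ZNRF3 and DKK1). MYC and CCND1 are best known as Wnt targets in intestinal tumours, and many other signals also set their levels.

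Values were taken as RPKM, a read number divided by the length of the gene and by the depth of the library. One control library, DMSO 1, has no decimals and was taken to be RPKM cut to whole numbers, which makes its low values coarse. The 9 genes are given with and without it, and the other pathway genes from all 6 libraries, with the value without it where that differs in call or by over 1.5 times. Its difference from the average of the other control libraries was between -0.533 and -0.509 RPKM in genes from 1 to 50 RPKM, and -0.918 ± 0.098 RPKM (SE) from 50 to 200 RPKM. Estimated depth was 37.2 to 37.9 M reads in the OTI-611 libraries and 30.6 and 32.3 M reads in DMSO 2 and DMSO 3, and could not be estimated for DMSO 1. The epithelial markers KRT8, KRT18, KRT19, EPCAM and CDH1 summed to between 471 and 517.5 RPKM in OTI-611 libraries and between 503 and 529 in DMSO libraries. Within that sum KRT8 (-0.50) and CDH1 (-1.09) fell on the log2 scale, KRT19 rose (0.13, but did not pass without DMSO 1), and KRT18 and EPCAM did not pass. The leukocyte markers found summed to at most 0.0454 RPKM in OTI-611 libraries and 0.0956 in DMSO libraries, and the endothelial markers to at most 0.0278 and 0.0486. The fibroblast markers found stayed under 1 RPKM in every library. Of the androgen receptor axis genes, KLK3, KLK2 and TMPRSS2 reached at most 0.0595 RPKM in OTI-611 libraries and 0.0456 in DMSO libraries. In bulk samples of this kind, fewer cells expressing a gene and less of its RNA per cell cannot be told apart.

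Among the 9 genes, MYC (1.90-fold) and DKK1 (1.82-fold the mean of DMSO 2 and DMSO 3) rose with OTI-611, and TCF7L2, ZNRF3 and CCND1 fell by smaller amounts. The level of CTNNB1, which encodes β-catenin itself, overlapped between the groups. TCF7 and RNF43 passed as lower once DMSO 1 was set aside but not with all 6 libraries, and AXIN2 passed in neither fit. Of the 7 genes with a mean of at least 1 RPKM, the minimum for testing, 2 rose, 3 fell and 2 did not pass (limma on log2(RPKM + 1), an adjusted p by Benjamini-Hochberg below 0.05 among 11978 genes). Across all genes tested 65.2% passed, 27.8% higher and 37.3% lower with OTI-611, and in 70.2% the libraries of the groups did not overlap. The count of 5 in 7 is thus near the share of all genes. In absolute log2 fold change, 5.03% of tested genes exceeded MYC and 6.86% exceeded DKK1. For the genes that fell the shares were 47.1% (TCF7L2), 53% (ZNRF3) and 73.2% (CCND1), so their changes were not large among all genes.

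**Figure D1:**
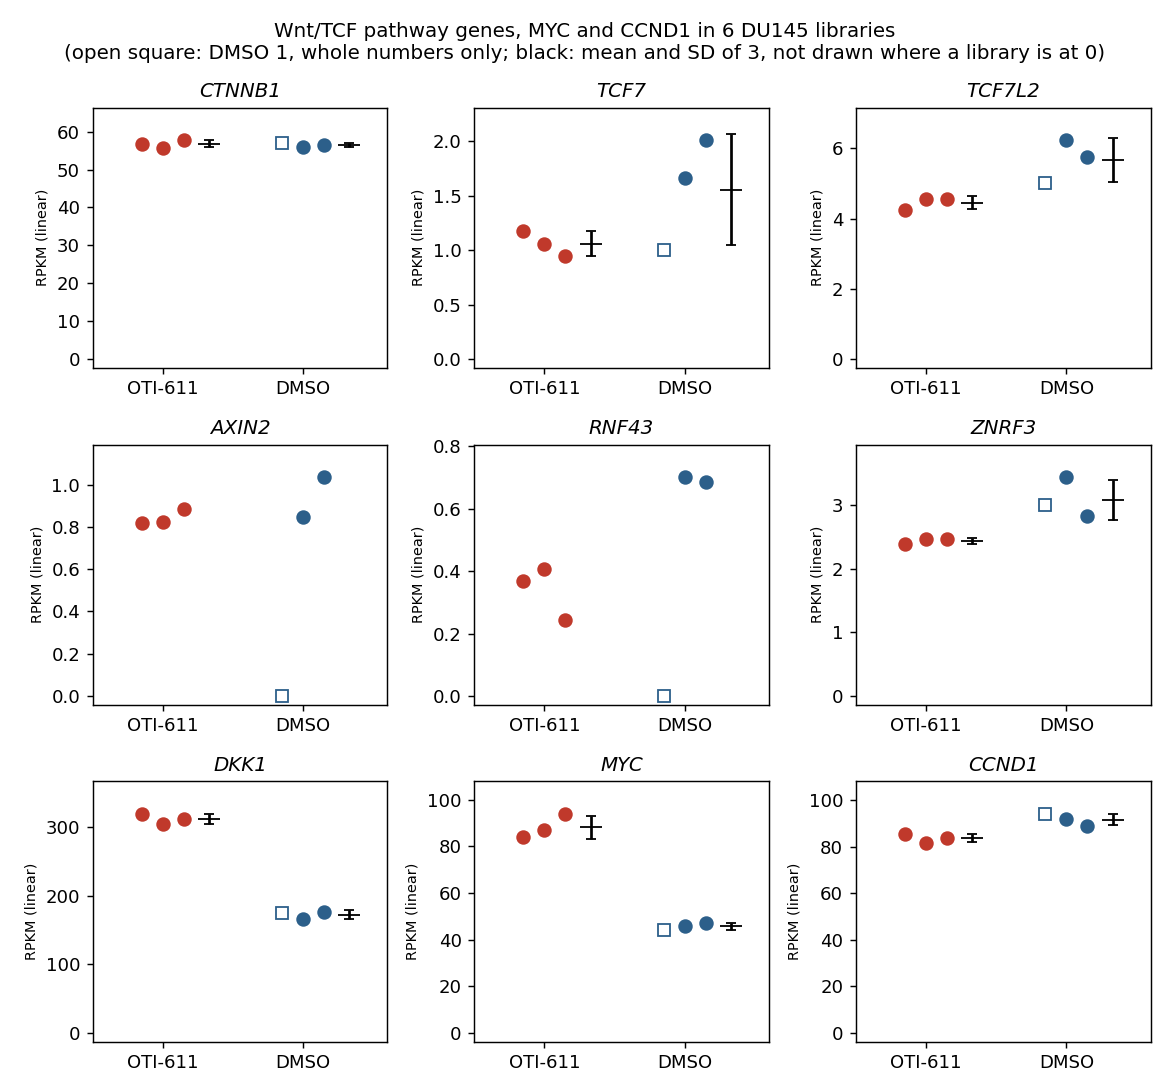
RPKM of the 9 genes in each OTI-611 library (red) and each DMSO library (blue) on linear axes, with the mean and SD of 3 libraries in black where no library is at 0. The OTI-611 libraries of MYC and DKK1 lie far above the DMSO libraries, those of CTNNB1 lie among them, and the open square of DMSO 1 sits at 0 for AXIN2 and RNF43.

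To show the sequence at the start of genes that rose, fell and overlapped, promoter windows from RefSeq on GRCh38.p14 are printed for DKK1, TCF7, TCF7L2 and CTNNB1. Each runs from 250 bases before to 50 after a transcription start and is written 5′ to 3′ on the gene's strand, which is the plus strand for all 4. Capitals mark the core letters bound by TCF and LEF factors, searched on both strands as the motif CTTTGAT, the motif CTTTGAA, the motif CTTTGTT and the motif CTTTGTA, so that a match on the other strand reads as its reverse complement. Of 35116 such windows in the human genome, 13.8% hold at least 1 match. The RefSeq table held 10 windows for 6 of the 10 genes, several for genes with more than 1 start, and 3 of the 10 windows had a match. The forkhead letters GTAAACA, searched because FOXO3 is named in the title, were found in 1 of the 10 windows (the other TCF7 window) and in 3.42% of all windows, and they share no letters with the TCF matches.
DKK1 chr10:52314031-52314330: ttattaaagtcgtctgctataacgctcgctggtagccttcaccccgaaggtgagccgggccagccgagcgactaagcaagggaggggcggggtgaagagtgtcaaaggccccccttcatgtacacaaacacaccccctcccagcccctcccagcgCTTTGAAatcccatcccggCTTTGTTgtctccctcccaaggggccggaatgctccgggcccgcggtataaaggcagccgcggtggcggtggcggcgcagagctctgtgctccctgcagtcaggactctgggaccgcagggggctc
TCF7 chr5:134123368-134123667: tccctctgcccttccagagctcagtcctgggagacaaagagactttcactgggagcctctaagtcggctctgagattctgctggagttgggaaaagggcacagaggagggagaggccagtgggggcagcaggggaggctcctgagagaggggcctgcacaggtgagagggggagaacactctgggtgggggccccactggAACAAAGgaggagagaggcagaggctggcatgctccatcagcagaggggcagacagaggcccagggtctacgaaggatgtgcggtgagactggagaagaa
TCF7L2 chr10:113126383-113126682: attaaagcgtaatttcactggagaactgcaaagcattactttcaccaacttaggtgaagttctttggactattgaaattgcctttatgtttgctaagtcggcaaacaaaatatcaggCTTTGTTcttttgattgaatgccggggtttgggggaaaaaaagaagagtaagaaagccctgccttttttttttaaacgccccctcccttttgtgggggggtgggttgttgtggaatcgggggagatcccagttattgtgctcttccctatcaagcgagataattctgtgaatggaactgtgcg
CTNNB1 chr3:41199255-41199554: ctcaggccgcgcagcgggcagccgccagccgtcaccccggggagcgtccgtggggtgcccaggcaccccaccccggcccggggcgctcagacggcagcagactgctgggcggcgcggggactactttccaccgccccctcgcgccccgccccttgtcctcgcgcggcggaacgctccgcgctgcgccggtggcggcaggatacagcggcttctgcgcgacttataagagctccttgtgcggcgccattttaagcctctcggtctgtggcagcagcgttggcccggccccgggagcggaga
The DKK1 window held 2 matches, which begin 95 and 76 bases before the start. Of 2 TCF7 windows and 3 TCF7L2 windows, the printed one of each held 1 match and the others none, and the windows of CTNNB1, RNF43 and TCF7L1 held none. The printed TCF7 and TCF7L2 windows were chosen for their match and lie at starts inside the gene, downstream of its first annotated base. A match is a run of letters and does not show that a factor binds there.

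CTNNB1 (ENSG00000168036; chromosome 3 from 41194741 to 41260096 in GENCODE v29 on GRCh38) had 56.8, 55.8 and 57.7 RPKM in the OTI-611 libraries and 57, 56.0 and 56.6 RPKM in the DMSO libraries. The groups overlapped, and all 6 libraries lay between 55.8 and 57.7 RPKM. The log2 fold change was 0.01 ± 0.026 (SE), with a 95% interval from -0.05 to 0.06 and a limma adjusted p of 0.86. Without DMSO 1 the interval ran from -0.06 to 0.08. β-catenin activity is set mainly by protein stability, which messenger RNA does not report.

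The TCF factors bind DNA through a high mobility group domain and recruit either β-catenin or repressors. TCF7L2 (ENSG00000148737; chromosome 10 from 112950250 to 113167678) had 4.25, 4.54 and 4.57 RPKM with OTI-611 and 5, 6.23 and 5.76 RPKM with DMSO. Every OTI-611 library lay below every DMSO library, which was so for 39.7% of all genes tested. Its log2 fold change was -0.29 ± 0.077 (SE, limma adjusted p = 0.0095), or -0.36 ± 0.059 once DMSO 1 was left out (limma adjusted p = 0.0013).

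TCF7 (ENSG00000081059; chromosome 5 from 134114711 to 134151865) had 1.17, 1.06 and 0.947 RPKM with OTI-611 and 1, 1.66 and 2.01 RPKM with DMSO. DMSO 1 fell among the OTI-611 libraries, while DMSO 2 and DMSO 3 lay above all 3. With all 6 libraries the log2 fold change was -0.29 ± 0.16 (SE) and did not pass (limma adjusted p = 0.15). Without DMSO 1 it was -0.46 ± 0.097 and passed (limma adjusted p = 0.0045, in a fit where 68.7% of all genes passed, 26.3% as higher and 42.4% as lower), and the OTI-611 mean was 57.8% of the mean of DMSO 2 and DMSO 3. LEF1, the fourth factor of this family, had 0.240, 0.442 and 0.163 RPKM with OTI-611 and was listed at 0, 0.246 and 0.259 with DMSO, under the minimum for testing. TCF7L2 thus had the highest listed RPKM of the 3 factors measured in either group.

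The feedback genes AXIN2, RNF43 and ZNRF3 are among the most general reporters of canonical Wnt signalling, and all 3 were low in DU145. AXIN2, a scaffold of the destruction complex (ENSG00000168646; chromosome 17 from 65528563 to 65561647), had 0.818, 0.823 and 0.882 RPKM with OTI-611 and was listed at 0, 0.849 and 1.03 RPKM with DMSO. The groups overlapped: OTI-611 1 and 2 lay below DMSO 2 and DMSO 3, and OTI-611 3 lay between them, with estimated counts of 159 to 175 reads against 136 and 175. In a fit with no minimum its log2 fold change was 0.24 ± 0.30 (SE, limma adjusted p = 0.66), beside 21.1% of all genes passing in that fit, 9.37% as higher and 11.8% as lower. Without DMSO 1 the sign turned, to -0.08 with a 95% interval from -0.29 to 0.13 (limma adjusted p = 0.55), so no difference was detectable at this level. Exons of AC004805.1 on the same strand cover 25.2% of the AXIN2 exon bases.

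RNF43, a membrane ubiquitin ligase that removes Frizzled receptors (ENSG00000108375; chromosome 17 from 58352500 to 58417595), had 0.370, 0.408 and 0.242 RPKM with OTI-611 and was listed at 0, 0.701 and 0.686 RPKM with DMSO. All 3 OTI-611 libraries lay below DMSO 2 and DMSO 3 and above the 0 of DMSO 1. The estimated counts were 69 to 114 reads with OTI-611 and 161 and 166 reads in DMSO 2 and DMSO 3. With all 6 libraries and no minimum the log2 fold change was -0.09 ± 0.24 (SE, limma adjusted p = 0.87). Without DMSO 1 it was -0.34 ± 0.077 (limma adjusted p = 0.040), a fit in which 28.8% of all genes passed, 9.03% as higher and 19.8% as lower, and the OTI-611 mean was 49.0% of the mean of DMSO 2 and DMSO 3. Exons of other genes, including SUPT4H1 on the same strand and TSPOAP1-AS1 on the opposite one, cover 73.9% of the exon bases annotated for RNF43, so its values are uncertain.

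ZNRF3, the paralogue of RNF43 with the same role (ENSG00000183579; chromosome 22 from 28883592 to 29057487), had 2.38, 2.46 and 2.47 RPKM with OTI-611 and 3, 3.44 and 2.83 RPKM with DMSO. The groups did not overlap, and every OTI-611 library lay below every DMSO library. The log2 fold change was -0.25 ± 0.087 (SE, limma adjusted p = 0.031). With DMSO 1 left out it still passed (limma adjusted p = 0.024), and it missed the threshold without DMSO 2 (0.12), without OTI-611 1 (0.088), without OTI-611 2 (0.078) and without OTI-611 3 (0.073).

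DKK1 rose where ZNRF3 fell. It encodes a secreted inhibitor that binds LRP5 and LRP6 and blocks Wnt reception (ENSG00000107984; chromosome 10 from 52314296 to 52318042). DKK1 had 318.5, 304.7 and 311.8 RPKM in the OTI-611 libraries and 175, 165.2 and 176.7 RPKM in the DMSO libraries. No library of one group came near the other, and the OTI-611 mean was 1.82-fold the mean of DMSO 2 and DMSO 3. The log2 fold change was 0.85 ± 0.031 (SE, limma adjusted p = 5.32e-08), or 0.86 ± 0.037 with DMSO 1 left out (limma adjusted p = 4.43e-06), and 2.91% of the genes tested had a larger rise. Exons of the antisense gene PRKG1-AS1 cover 9.61% of the DKK1 exon bases, and whether reads were counted by strand is not given in the sources used here.

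MYC, the transcription factor that drives growth and ribosome production with its partner MAX (ENSG00000136997; chromosome 8 from 127735434 to 127741434), had 84.1, 86.8 and 93.7 RPKM with OTI-611 and 44, 46.0 and 47.1 RPKM with DMSO. The groups were well apart, and in 30.5% of all genes tested each OTI-611 library exceeded each DMSO library. The OTI-611 mean was 1.90-fold the mean of DMSO 2 and DMSO 3. The log2 fold change was 0.93 ± 0.042 (SE, limma adjusted p = 1.74e-07), or 0.91 ± 0.047 with DMSO 1 left out (limma adjusted p = 8.42e-06), and 2.30% of the genes tested had a larger rise. No exon of another gene overlaps those of MYC in GENCODE v29.

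CCND1, which encodes cyclin D1, the partner of CDK4 and CDK6 at the start of the cell cycle (ENSG00000110092; chromosome 11 from 69641087 to 69654474), had 85.5, 81.8 and 83.9 RPKM with OTI-611 and 94, 92.0 and 89.2 RPKM with DMSO. The groups did not overlap, and the OTI-611 mean was 92.4% of the mean of DMSO 2 and DMSO 3. The log2 fold change was -0.13 ± 0.029 (SE, limma adjusted p = 0.0033), or -0.11 ± 0.032 with DMSO 1 left out (limma adjusted p = 0.016). After rescaling each library to the median log ratio it was -0.08 and no longer passed (limma adjusted p = 0.17). Exons of LTO1 on the opposite strand cover 10.3% of its exon bases.

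**Figure D2:**
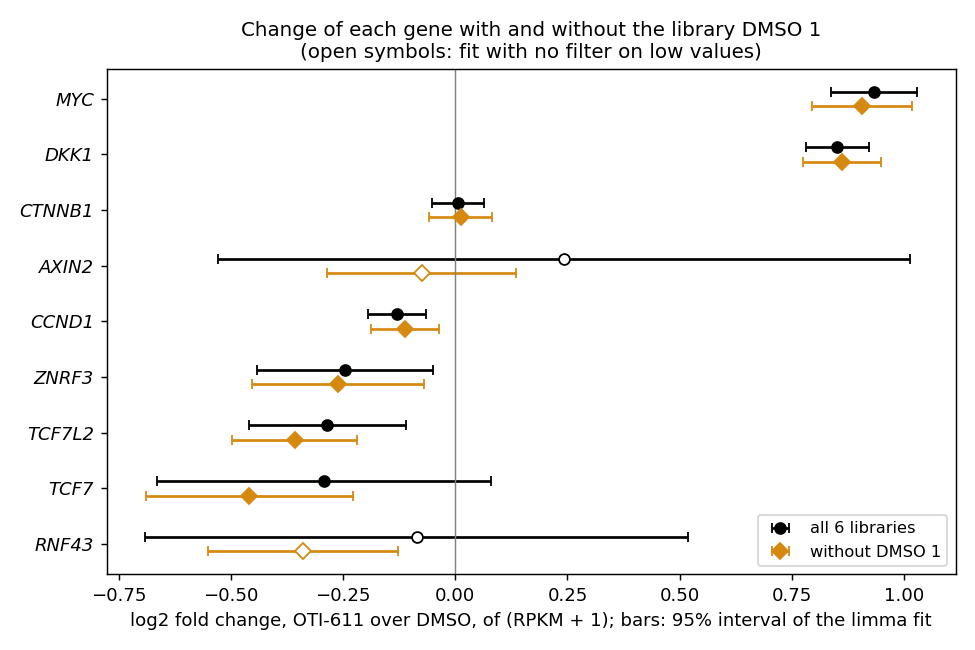
Log2 fold change of (RPKM + 1), OTI-611 over DMSO, for each gene with the 95% interval of the limma fit over all 6 libraries (circles) and without DMSO 1 (diamonds); open symbols come from fits with no filter on low values. MYC and DKK1 stand at 0.93 and 0.85, the intervals of CTNNB1 cover 0 in both fits, and TCF7 and RNF43 leave 0 only without DMSO 1.

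Ordered by RPKM, which is per length, the genes with OTI-611 ran from DKK1 (311.7 RPKM) through MYC (88.2), CCND1 (83.7), CTNNB1 (56.8), TCF7L2 (4.45), ZNRF3 (2.44), TCF7 (1.06) and AXIN2 (0.841) to RNF43 (0.340). With DMSO the order of the upper genes was DKK1 (172.3 RPKM), CCND1 (91.7), CTNNB1 (56.5) and MYC (45.7). MYC therefore stood below CTNNB1 and CCND1 in each DMSO library, and its OTI-611 libraries overlapped those of CCND1. From TCF7L2 down the order was the same in both groups, although the DMSO libraries of TCF7 overlapped those of AXIN2, and those of AXIN2 overlapped those of RNF43, through the coarse values of DMSO 1.

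The genes whose 6-library profile was most like that of MYC, by root mean square difference of centred log2(RPKM + 1) among 7791 candidates, included SMAGP (0.035) and SH2D5 (0.035). SMAGP averaged 13.2 ± 0.59 RPKM with OTI-611 and 6.23 ± 0.21 with DMSO, and SH2D5 averaged 21.2 ± 1.02 RPKM with OTI-611 and 10.7 ± 0.651 with DMSO (SD, n = 3 each). Those nearest to CTNNB1 were KHDRBS1 (0.006), TRIP12 (0.008) and FKBP10 (0.009), and those nearest to CCND1 were NRIP1 (0.012), ECHDC1 (0.013) and DLGAP5 (0.013). The 6 libraries form 2 groups, so genes with a like change between the groups score as alike.

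Other genes of the Wnt and MYC pathways were read from 16 lists ordered by role, which hold 180 genes besides the 10. Of these 169 had a row and 117 were tested, and 49 rose, 41 fell and 27 did not pass, beside 27.8% of all genes tested rising and 37.3% falling. With 65.2% of all genes passing, the counts of each list below are read against those shares. Without DMSO 1, 48 rose and 45 fell, and the falling coactivator genes and corepressor genes each numbered 5 and the rising MYC target genes 6, against 4, 4 and 7 with all 6 libraries. With all 6 libraries the median log2 fold change of these pathway genes was 0.01, against -0.05 over all genes tested. Without DMSO 1 the medians were -0.01 and -0.09. The lists were chosen with earlier results of these data known and are described by their counts only. Genes named beyond the 4 with the smallest p in a list were chosen after their values were seen.

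At the cell surface most tested receptor genes were lower. Of 15 receptor genes with a row, 6 lay under the minimum (FZD1, FZD3, FZD8, FZD9, LRP6 and ROR2). LRP6 was listed at 0 in every DMSO library and at most 0.0052 RPKM with OTI-611, which is not read as absence. The 9 Wnt receptor genes tested had a median log2 fold change of -0.27 (5 fell, 3 did not pass, and RYK, at 0.17, rose). Without DMSO 1 the median was -0.43 and 6 fell, with FZD4 passing at -0.43 (limma adjusted p = 0.0025) against -0.27 with all 6 libraries (0.16). FZD7, a Frizzled receptor, had 3.51, 3.25 and 2.54 RPKM with OTI-611 and 6, 6.55 and 5.69 RPKM with DMSO. FZD6 (-0.44), FZD2 (-0.27), the co-receptor LRP5 (-0.50) and the receptor-like PTK7 (-0.51) also fell. LGR4, a receptor for R-spondins, which protect Frizzled receptors from RNF43 and ZNRF3, had 8.08, 8.57 and 8.52 RPKM with OTI-611 and 17, 17.1 and 16.4 RPKM with DMSO (log2 fold change -0.93 ± 0.041 (SE), limma adjusted p = 1.56e-07). The R-spondin gene RSPO3 fell too, with 1.14, 1.30 and 1.08 RPKM against 2, 2.30 and 2.28. KREMEN1, which encodes a receptor for DKK1, fell by 0.77 on the log2 scale.

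Of 19 Wnt ligand genes, 15 had a row and 13 of these lay under the minimum. WNT10B fell (-0.38), and WNT7B, at 11.3 to 12.9 RPKM with OTI-611 and 12 to 13.3 with DMSO, did not pass. The secretion genes PORCN (0.52), which encodes the enzyme that adds a lipid to Wnt proteins, and WLS (0.41), their carrier to the surface, rose. PORCN missed the threshold with every library rounded down to whole numbers (0.49, limma adjusted p = 0.061). Among inhibitors DKK3 stood at -0.18 (limma adjusted p = 0.057) and passed without DMSO 1 at -0.22 (0.015). SFRP1 stood at -0.02, and at -0.13 without DMSO 1, and passed in neither fit.

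Inside the cell 11 of 16 tested Dishevelled and destruction complex genes rose and 3 fell, while 2 missed the threshold (median log2 fold change 0.21). DVL2, which relays the receptor signal, had 47.5, 46.0 and 49.6 RPKM with OTI-611 and 26, 25.8 and 26.7 with DMSO. RNF146, a ubiquitin ligase that removes Axin after it is modified by tankyrase, rose by 0.86 on the log2 scale, the kinase gene CSNK1A1 by 0.75 and AXIN1 by 0.65. GSK3B (-0.15), BTRC (-0.25) and PPP2CA (-0.41) fell. Activators and inhibitors of the pathway thus rose side by side.

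Of 7 genes for β-catenin and its partners, 1 rose, 3 fell and 3, CTNNB1 among them, did not pass. CDH1, which encodes E-cadherin, had 1.45, 1.46 and 1.71 RPKM with OTI-611 and 4, 4.39 and 4.80 RPKM with DMSO. CDH3 (-0.84) and JUP (-0.68), which encodes γ-catenin, also fell, and CTNNA1, α-catenin, rose (0.35). Of 14 coactivator genes 8 rose, among them CDC73 (0.45), PAF1 (0.32) and TBL1XR1 (0.22), and 4 fell, with PYGO2 (-0.69) furthest. Among 10 corepressor genes TLE1 rose, 4 fell and 5 did not pass. TLE1 had 24.0, 25.7 and 25.3 RPKM with OTI-611 and 10, 12.1 and 11.4 with DMSO, while its relative TLE4 had 2.57, 2.22 and 2.38 against 5, 5.45 and 5.44, so the Groucho-type repressors changed in opposite directions. TLE2 (-0.37), HDAC1 (-0.51) and CTBP1 (-0.18) fell.

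**Figure D3:**
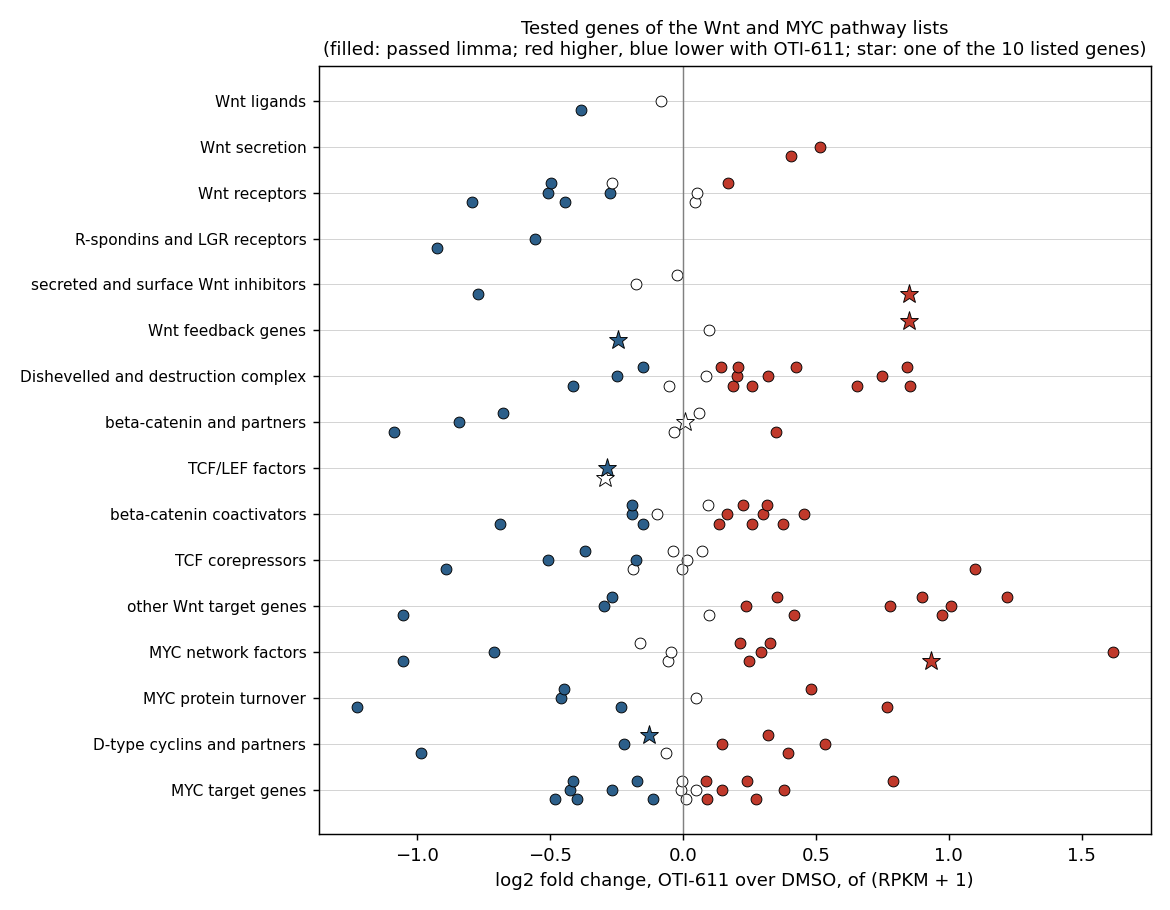
Log2 fold change of (RPKM + 1), OTI-611 over DMSO, of each tested gene in the 16 pathway lists, 1 row per list; filled symbols passed limma (red higher, blue lower), open symbols did not, and stars are genes among the 10. Points of the receptor row lie mostly left of 0 (5 fell, 1 rose) and those of the Dishevelled and destruction complex row mostly right (11 rose, 3 fell).

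The 12 other Wnt target genes tested had a median log2 fold change of 0.38 (8 rose, 3 fell and SP5 did not pass). SP5 stood at 0.10, and at -0.07 without DMSO 1. MMP14, a membrane metalloproteinase, had 22.4, 23.1 and 25.5 RPKM with OTI-611 and 9, 10.1 and 9.73 with DMSO. VEGFA (1.01), PLAUR (0.90) and CD44 (0.35) rose, and BMP4 (-1.05), ID2 (-0.30) and BIRC5 (-0.27) fell. Many of these genes answer to other pathways as well. LGR5, ASCL2, NKD1 and APCDD1, whose expression follows Wnt signalling more closely in the intestine, reached at most 0.0423 RPKM in OTI-611 libraries and 0.195 in DMSO libraries. In the fit with no minimum and without DMSO 1, APCDD1 (-0.21), TNFRSF19 (-0.44) and EPHB3 (-0.41) passed as lower, and none of them passed with all 6 libraries. Each lay under the minimum for testing. So did MMP7, LEF1, LGR5, EPHB2, ASCL2, PTGS2, NKD1, NKD2 and NOTUM, and none of these passed in either fit. EPHB2 stood at 0.17 without DMSO 1, with every OTI-611 library above every DMSO library. In the fit without DMSO 1, 28.8% of all genes passed, 9.03% as higher and 19.8% as lower. NOTUM had 0.530 to 0.715 RPKM with OTI-611 and 0, 0.806 and 0.790 with DMSO.

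Around MYC, the largest change was in MXD1, whose product competes with MYC for MAX and represses transcription. MXD1 had 10.1, 11.8 and 10.02 RPKM with OTI-611 and 3, 2.75 and 2.60 RPKM with DMSO, a 3.97-fold OTI-611 mean over DMSO 2 and DMSO 3 (log2 fold change 1.62 ± 0.075 (SE), limma adjusted p = 1.97e-07). Of its relatives, MXI1 rose too (log2 fold change 0.33), while MXD4 fell to 5.36, 5.45 and 5.30 RPKM with OTI-611, against 11, 12.8 and 12.9 with DMSO, and MXD3 fell by 0.71 on the log2 scale. MAX rose modestly, with 29.4, 28.3 and 30.4 RPKM against 24, 23.2 and 24.1 (log2 fold change 0.29). In all, 6 of 11 network genes tested, MYC included, rose and 2 fell.

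Genes that set the turnover of MYC protein went both ways. SKP2, part of a ubiquitin ligase for MYC and for the CDK inhibitor p27, had 7.37, 6.89 and 7.34 RPKM with OTI-611 and 19, 18.0 and 17.7 RPKM with DMSO (log2 fold change -1.23 ± 0.046 (SE), limma adjusted p = 6.18e-08). The deubiquitinase gene USP36 (0.77) and the ligase gene FBXW7 (0.48) rose, and USP28 (-0.46) and AURKA (-0.23) fell. FBXW7 was listed at 1 in DMSO 1, against 1.92 and 1.99 RPKM in the other DMSO libraries. Its log2 fold change was 0.29 without DMSO 1 (limma adjusted p = 0.0075), and with all 6 libraries and no filter it did not pass (limma adjusted p = 0.15). The 18 MYC target genes tested had a median log2 fold change of 0.00 (7 rose, 7 fell). ODC1, the first enzyme of polyamine synthesis, had 214.7, 233.0 and 243.6 RPKM with OTI-611 and 130, 135.2 and 132.4 with DMSO, while EIF4E (-0.48) and PTMA (-0.27) fell. LDHA, a glycolytic gene that most cells use, was listed between 0.213 and 0.370 RPKM with OTI-611 and between 0 and 1.05 with DMSO, so a low listed value in this table is not read as absence.

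Among the D-type cyclins CCND3 changed more than CCND1. It had 10.5, 9.22 and 11.1 RPKM with OTI-611 and 21, 21.5 and 21.3 with DMSO (log2 fold change -0.99 ± 0.059 (SE), limma adjusted p = 7.86e-07), though the difference between the cyclins was not tested. CCND2 reached at most 0.162 RPKM in OTI-611 libraries and 0.0855 in DMSO libraries, under the minimum for testing. CDK6 (0.39), CDK4 (0.15) and the CDK inhibitor gene CDKN1A (0.53) rose, as did FBXO31 (0.32), and FBXO4 (-0.22) fell.

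**Figure D4:**
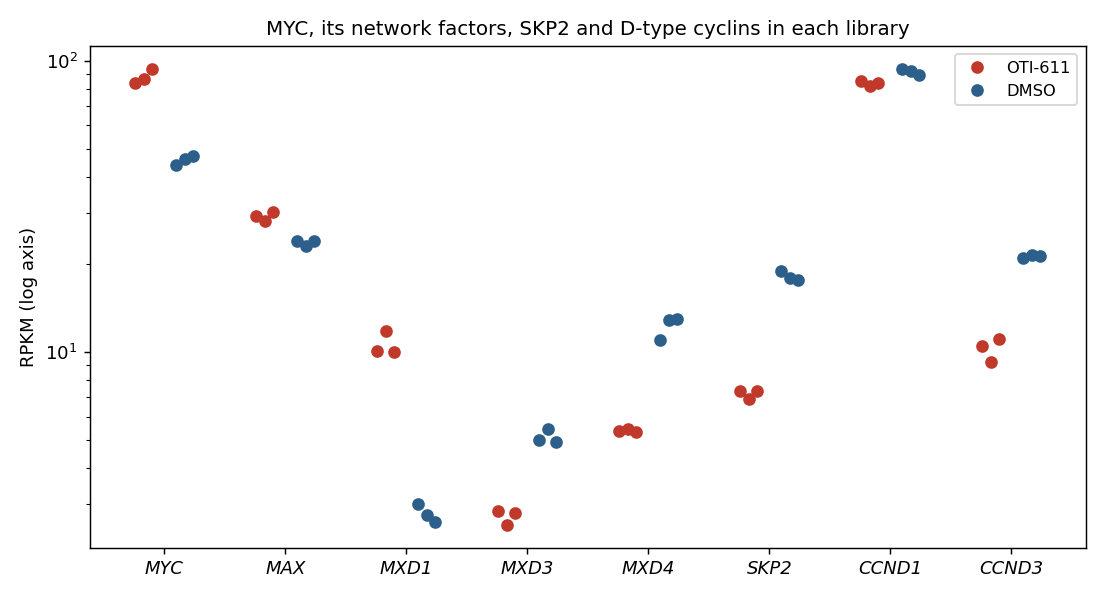
RPKM on a log axis of MYC, MAX, 3 MXD genes, SKP2, CCND1 and CCND3 in each OTI-611 library (red) and each DMSO library (blue). MXD1 and MYC lie higher with OTI-611, and MXD4, SKP2 and CCND3 lie lower, with no overlap between the groups.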

How the data were processed

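RNA of DU145 cells was measured in 3 OTI-611 and 3 DMSO samples. Nothing in the labels ties them to separate cultures, and p-values then reflect only how far these samples spread, possibly for technical reasons. Per the labels' protocols, amplification followed Geo-seq, before a TruePrep library kit was used. The submitters' processing notes name TopHat2 2.0.9, Cufflinks 2.1.1, HTSeq and mm10, a mouse build, whereas all 32692 IDs are human Ensembl IDs, so the build used is not established. The authors deposited 5 columns taken here as RPKM from their values (FPKM would look the same); DMSO 1, deposited as whole numbers, is a score read as RPKM with decimals dropped. Depth was estimated from the steps of low values and GENCODE v29 exon lengths, with 73.0% to 75.5% of low values whole within 0.05, and estimated read numbers rest on it.

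Values were fitted as log2(value + 1), with a mean of at least 1 over 6 libraries, by limma 3.58.1 in R 4.3.3 (group as the only term, mean-variance trend, two-sided, Benjamini-Hochberg over all genes tested). This scale understates changes of low genes. The fit was also run on simulated data with independent noise and few changed genes. Those data held no library of whole numbers, so they say nothing about DMSO 1. Fits left out each library, changed the pseudocount, filter, scaling and trend, rounded all libraries down, added 0.5 to DMSO 1, or added the replicate number as a block. Libraries sharing a number did not deviate together (correlations of 0.02, 0.00 and -0.06). The genes and lists were chosen with earlier results of these data known. Named genes are the 10, up to 4 tested genes per list with the smallest p, LEF1, CCND2, CCND3 and MAX, and the 3 most alike in profile to CTNNB1, MYC and CCND1. Other genes named were chosen after their values were seen. A few genes that this rule or the marker lists name are not reported here. Positions, unless credited to RefSeq, are GENCODE v29 on GRCh38.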

Additional observations from a re-analysis of the deposited data

How the results depend on the processing

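MYC and DKK1 kept their direction and passed in all 16 alternatives, with log2 fold changes of 0.89 to 0.97 and 0.82 to 0.87 when each library was left out. TCF7L2 missed the threshold with no filter on low values (-0.29, limma adjusted p = 0.058) and was -0.36 to -0.22 with libraries left out. CCND1 missed it after rescaling to the median log ratio (-0.08). ZNRF3 ran from -0.29 to -0.19 with libraries left out and missed it with no filter (-0.25), with no filter and without DMSO 1 (-0.26), after quantile normalization (-0.15), with every library rounded down (-0.28) and with the replicate block (-0.25, limma adjusted p = 0.059). TCF7 ran from -0.46 to -0.16 with libraries left out, and passed without DMSO 1, also with no filter (-0.46), and with 0.5 added to DMSO 1 (-0.40). RNF43 ran from -0.34 to 0.04, passed without DMSO 1 (-0.34), and turned to 0.13 with a pseudocount of 0.1 and 0.01 after quantile normalization. AXIN2 ran from -0.08 to 0.44 and turned to -0.08 without DMSO 1 and -0.33 with every library rounded down. CTNNB1 ran from -0.01 to 0.02 and was -0.01 with every library rounded down. The count of the 10 genes that fell was 1 with no filter and 2 to 4 with libraries left out. Of pathway genes that did not pass, SFRP1 was 0.07 when quantile normalized and 0.01 when rescaled (-0.13 to 0.08 with libraries left out), and SP5 to -0.07 with no filter and without DMSO 1 and -0.01 with 0.5 added to DMSO 1 (-0.07 to 0.24 with libraries left out). With 0.5 added to DMSO 1, LEF1 and CCND2 turned to -0.06 each. The causes were not tested. The replicate block changed no other call among the 10 genes. A mean of at least 5 left no value for TCF7, AXIN2, RNF43 and ZNRF3. Count tests were planned for raw counts and were not run.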
